A study of Mus musculus with 6 samples.

Results

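Neutrophil granule genes encode the proteases, antimicrobial proteins and calcium-binding proteins that neutrophils store. Here 10 of them were followed in sorted HSC: Mpo, Elane, Prtn3, Ctsg, Ltf, Camp, Ngp, Lcn2, S100a8 and S100a9. They were chosen by name, as the probes that carry these gene names on the arrays, and make up 10 of the 23605 genes on the array that the RefSeq gene table names. The 10 genes have 12 probes, because Mpo and Camp have 2 each.

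The study asked how p190-B, a RhoGAP encoded by Arhgap5, acts in HSC through serial transplantation. Both groups are LSK-SLAM cells (Lin-, c-Kit+, Sca-1+, CD150+, CD48-), a marrow population enriched for HSC, taken from secondary recipients (2T). In 2T-p190-B-/- the donor cells came from fetal livers of p190-B-/- embryos, and in 2T-WT from WT littermates, all on a C57BL/6J background and CD45.2+. Donor cells were transplanted with CD45.1+ competitor marrow into lethally irradiated CD45.1+ congenic mice, and their marrow was later passed to the secondary recipients. The study's array methods do not state whether the sort took CD45.2+ cells alone. RNA was amplified, labelled with Cy3 and hybridised to 6 Agilent whole mouse arrays, 3 per genotype. The arrays come from independent secondary recipients isolated on separate occasions, per the study's description, and whether each stands for a single mouse or a pool is not stated in the labels, so p-values measure the spread between these samples.

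Neutrophils make their granules in waves as they mature. Azurophil granules, with myeloperoxidase and serine proteases, form first in promyelocytes under regulators such as Cebpa, and specific granules, with lactoferrin and cathelicidin, form later under Cebpe. Early progenitors can already carry low amounts of azurophil transcripts, whereas specific granule transcripts mark later stages.

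The arrays differed in brightness. The 75th percentile of the processed signal, a background-corrected intensity, was 125, 227 and 53.9 in 2T-WT, in the order of replicates 1 to 3 used throughout, against 385, 321 and 252 in 2T-p190-B-/-. All 2T-p190-B-/- arrays were thus brighter than all 2T-WT arrays before scaling. Scaled values are the log2 of the signal less the log2 of that percentile, so that 0 is the percentile itself. Values without scaling are an alternative chosen after seeing the data. A difference is the 2T-p190-B-/- mean less the 2T-WT mean. All 25160 tested probes together had a median difference of -0.33, against which that of a member is to be read. The probe for Arhgap5 was well above background on 1 of the 6 arrays, 2T-p190-B-/- replicate 2, and so gives no check of the genotypes.

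A probe was tested when it was well above background on at least 3 arrays, which held for 10 of the 12 probes and 8 of the 10 genes. The probe for S100a8 was above background on 2 arrays and the probe for S100a9 on 0. By limma with Benjamini-Hochberg adjustment, 0 of the 10 probes had an adjusted p under 0.05, where the share over all probes tested was 0%. Over all probes the count was 0, and the methods' t-test with the same adjustment also gave 0. The downstream Mpo probe was above background in 2T-p190-B-/- alone and passed the filter only through that group. It had to differ, so it is left out of the member counts that follow, while the shares over all probes include such probes. Before adjustment, the limma p was under 0.05 for 0 of the other 9, against 1654 or 6.57% of all probes. For 1 of the 9, the upstream Mpo probe, the values of the groups lay apart, against 16.1% of all probes. It lay lower in 2T-p190-B-/-, against 11.6% of all probes, and 0 of the 9 lay higher, against 4.52%. The methods' t-test with a difference of at least 2-fold took 0 of the 9 as higher and 0 as lower, against 2.31% and 4.1% of all probes. Counts this small lie near the background and are no result about the members.

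**Figure D1:**
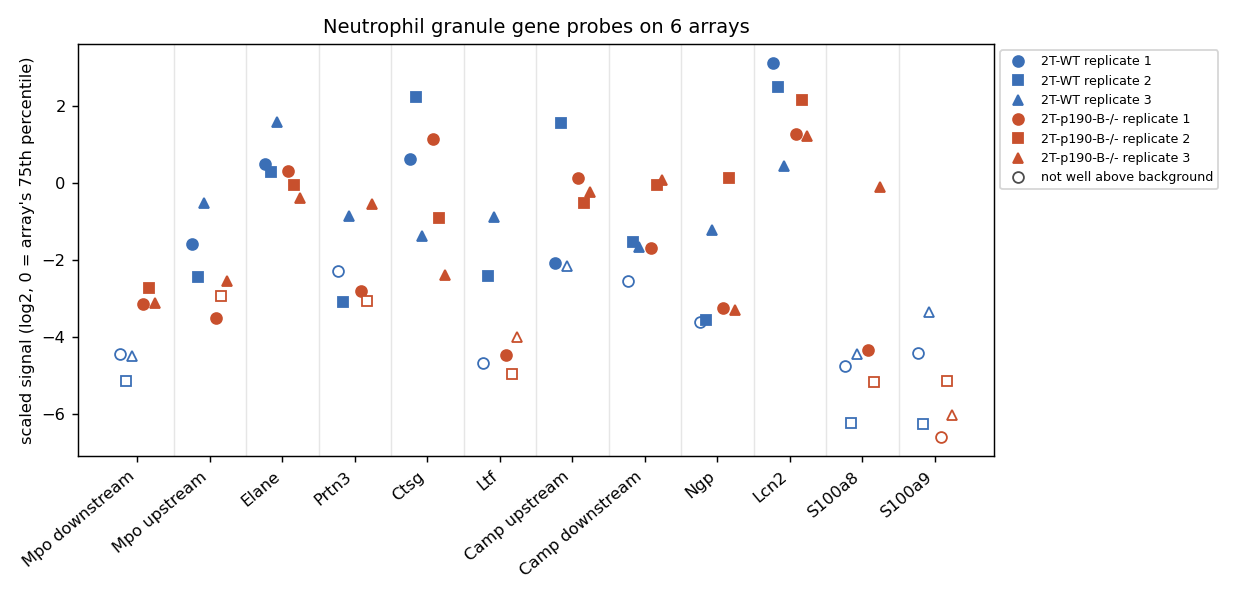
Scaled signal of each of the 12 probes (vertical axis, log2, 0 at the array's 75th percentile) on the 6 arrays, with open symbols where the probe was not well above background. The downstream Mpo probe is open on the 3 2T-WT arrays and filled on the 3 2T-p190-B-/- arrays, and S100a8 stands out on 2T-p190-B-/- replicate 3 at -0.11.

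Mpo encodes myeloperoxidase, the heme enzyme that makes hypochlorous acid in azurophil granules. Its probes lie 2659 bases apart on the plus strand, the upstream one at chr11:87615121-87615180 and the downstream one at chr11:87617840-87617899 (mm9). The downstream probe holds the polyadenylation signal AATAAA. The upstream probe is shown here because it is the Mpo probe above background in both groups, together with the probes for Prtn3, which joins separate genomic stretches within chr10:79343869-79344685, plus strand, and for S100a8, at chr3:90473778-90473837, plus strand. All are written 5′ to 3′ as the deposited array annotation gives them, in lower case with no part set apart.
Mpo upstream: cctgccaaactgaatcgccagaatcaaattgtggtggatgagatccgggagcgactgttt
Prtn3: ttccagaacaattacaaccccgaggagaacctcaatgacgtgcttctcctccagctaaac
S100a8: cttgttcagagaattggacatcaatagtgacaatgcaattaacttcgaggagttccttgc

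The unscaled signal of the upstream Mpo probe was 41.4, 41.6 and 37.6 in 2T-WT against 34.2, 42.3 and 43.2 in 2T-p190-B-/-. These signals overlapped and lay within a narrow range on arrays whose 75th percentiles spanned 53.9 to 385. After scaling, its values were -1.59, -2.45 and -0.52 in 2T-WT and -3.49, -2.92 and -2.55 in 2T-p190-B-/-. The groups then no longer overlapped, and the difference was -1.47 (SE 0.77, 95% interval -3.23 to 0.30, limma adjusted p = 0.637, n = 3 and 3 arrays). Without scaling the difference was -0.02, and with 1 array left out at a time it ran from -1.93 to -0.97. The probe was well above background on every array but 2T-p190-B-/- replicate 2.

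The downstream Mpo probe had an unscaled signal of 5.70, 6.39 and 2.41 in 2T-WT against 44.0, 48.2 and 29.2 in 2T-p190-B-/-. In 2T-WT it was well above background on 0 of 3 arrays, in 2T-p190-B-/- on 3 of 3, and the groups did not overlap with or without scaling. On the 2T-WT arrays only a bound can be set, and measured against the lowest signal well above background there it comes to under 1, so neither a fold nor a difference is given. With normexp background correction its direction turned.

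**Figure D2:**
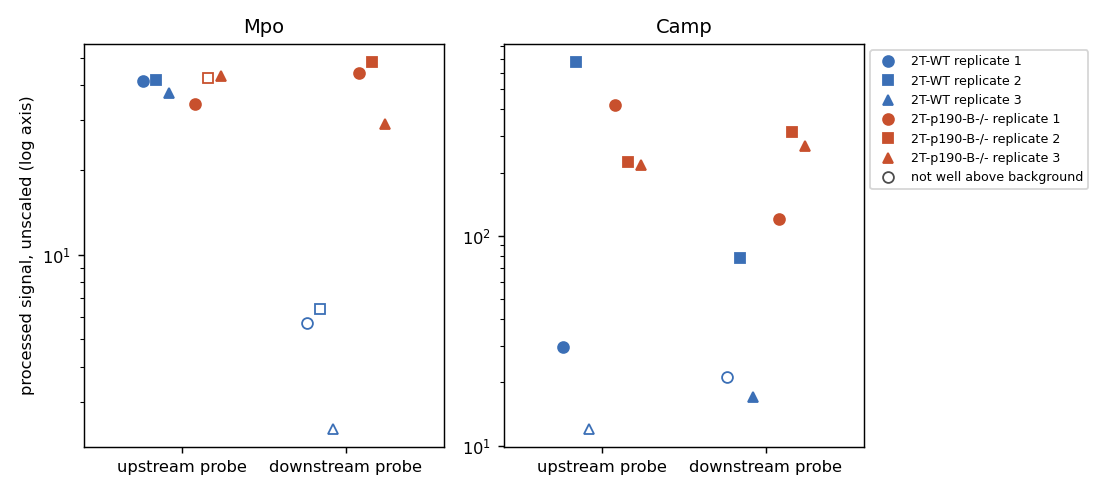
Unscaled processed signal (vertical axis, logarithmic) of the paired probes of Mpo (left) and Camp (right) on the 6 arrays, open where not well above background. The upstream Mpo probe lies between 34.2 and 43.2 on all arrays, and the downstream Mpo probe is open on all 2T-WT arrays.

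Elane encodes neutrophil elastase, the serine protease whose human counterpart is mutated in severe congenital neutropenia. Its scaled values were 0.51, 0.30 and 1.58 in 2T-WT and 0.31, -0.04 and -0.39 in 2T-p190-B-/-. It was above background on every array, 2T-WT replicate 3 was the highest, and the groups overlapped through 2T-WT replicate 2 and 2T-p190-B-/- replicate 1. The difference was -0.83 (SE 0.70, limma adjusted p = 0.696, n = 3 and 3 arrays), and it was 0.62 without scaling and -1.08 to -0.44 with 1 array left out.

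Prtn3 encodes proteinase 3, a close relative of elastase, and its probe lies 6216 bases from that of Elane on chromosome 10. Its scaled values were -2.28, -3.09 and -0.86 in 2T-WT and -2.82, -3.06 and -0.53 in 2T-p190-B-/-. Replicate 3 of each genotype was the high array, and the groups overlapped throughout. The unscaled signals were 25.7, 26.7 and 29.8 in 2T-WT and 54.7, 38.5 and 175 in 2T-p190-B-/-, without overlap. The scaled difference was -0.06 (SE 0.96, limma adjusted p = 0.988, n = 3 and 3 arrays), and it was above 0 under quantile normalization, under median scaling, with the authors' values and without scaling. With 1 array left out it ran from -0.86 to 0.55, and within the slide that holds both genotypes it was -0.96.

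Ctsg encodes cathepsin G, a chymotrypsin-like protease. Its signal was 193, 1083 and 20.8 in 2T-WT against 853, 171 and 48.2 in 2T-p190-B-/-, above background on all 6. Within each genotype replicate 3 was the lowest array, also after scaling, and the groups overlapped. The scaled difference was -1.22 (SE 1.21, limma adjusted p = 0.739, n = 3 and 3 arrays), and 0.23 without scaling. It was -2.16 without 2T-WT replicate 3, -0.35 without 2T-WT replicate 2 and -0.32 within the slide that holds both genotypes.

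The specific granule genes were Ltf, Camp, Ngp and Lcn2. Ltf encodes lactoferrin, an iron-binding protein, and lay above background on 2 arrays of 2T-WT and 1 of 2T-p190-B-/-. Its scaled values were -4.68, -2.41 and -0.89 in 2T-WT and -4.46, -4.96 and -3.99 in 2T-p190-B-/-. Replicates 2 and 3 of 2T-WT were the high arrays, and 2T-WT replicate 1 lay among the 2T-p190-B-/- arrays. The difference was -1.81 (SE 1.02, limma adjusted p = 0.637, n = 3 and 3 arrays) and was -0.36 without scaling. It was -2.82 without 2T-WT replicate 1, -0.92 without 2T-WT replicate 3 and -3.06 within the slide that holds both genotypes.

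Camp encodes the cathelicidin precursor. Its probes lie on the minus strand of chromosome 9 and share a stretch of 50 bases, of which 48 are identical, with the substitutions A6G and T10C between the upstream and the downstream probe, counted from 1 at the first shared base. The upstream probe had scaled values of -2.08, 1.56 and -2.16 in 2T-WT and 0.13, -0.51 and -0.22 in 2T-p190-B-/-. For the downstream probe they were -2.55, -1.54 and -1.66 in 2T-WT and -1.68, -0.04 and 0.08 in 2T-p190-B-/-. At the upstream probe 2T-WT replicate 2 was the highest and the other 2T-WT arrays the lowest. At the downstream probe 2T-p190-B-/- replicates 2 and 3 were high, and replicate 1 lay among the 2T-WT arrays. The differences were 0.69 (SE 1.08) and 1.37 (SE 0.78), with limma adjusted p = 0.842 and 0.637 (n = 3 and 3 arrays), and the groups overlapped at both probes. With normexp they were -0.35 and 0.09, and within the slide 0.11 and 0.74. Without scaling they were 2.14 and 2.82, against a median over all probes of 1.12. The groups then did not overlap at the downstream probe. The upstream probe was not well above background on 2T-WT replicate 3, nor the downstream probe on 2T-WT replicate 1. With 1 array left out, the upstream probe's difference ran from 0.06 to 1.92.

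Ngp, neutrophilic granule protein, is a cathelicidin relative of the mouse. Its signal was 10.1, 19.4 and 23.4 in 2T-WT against 40.7, 353 and 25.6 in 2T-p190-B-/-. After scaling, 2T-p190-B-/- replicate 2 was high at 0.14, 2T-WT replicate 3 followed at -1.21, and the other arrays lay between -3.62 and -3.24. The difference was 0.66 (SE 1.16, limma adjusted p = 0.86, n = 3 and 3 arrays), and it was -0.45 with normexp. Leaving out 2T-p190-B-/- replicate 2 gave -0.48, and leaving out 2T-WT replicate 3 gave 1.45.

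Lcn2 encodes lipocalin 2, which binds bacterial siderophores. Its signal was 1094, 1289 and 74.1 in 2T-WT against 929, 1450 and 587 in 2T-p190-B-/-. It was above background on all 6 arrays, and 2T-WT replicate 3 was low, before and after scaling. The scaled difference was -0.48 (SE 0.87, limma adjusted p = 0.865, n = 3 and 3 arrays), and it was 0.97 without scaling, 0.10 with normexp, 0.24 within the slide that holds both genotypes and -1.26 to 0.07 with 1 array left out.

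**Figure D3:**
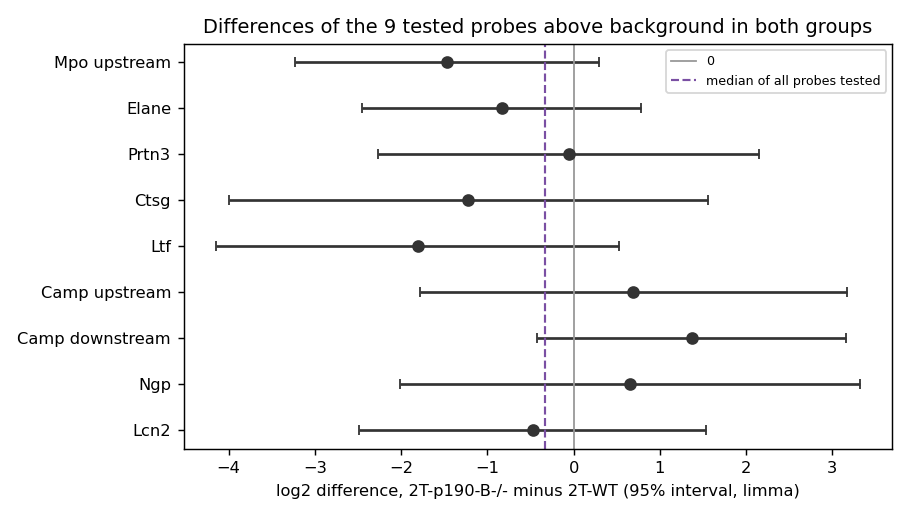
Scaled log2 differences, 2T-p190-B-/- minus 2T-WT, of the 9 tested probes that were above background in both groups (points) with 95% intervals from limma, the dashed line marking the median of all probes tested, -0.33. All 9 intervals hold 0.

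S100a8 and S100a9 encode the subunits of calprotectin, which binds calcium and zinc in the neutrophil cytosol. The signal of S100a8 was 4.59, 3.03 and 2.47 in 2T-WT against 18.9, 8.92 and 234 in 2T-p190-B-/-. It was well above background in replicates 1 and 3 of 2T-p190-B-/- and on no array of 2T-WT, and replicate 3 lay 4.24 above the next array after scaling. The bound on its fold is under 1 and none is given. S100a9, whose probe lies 22735 bases away on chromosome 3, was not well above background on any array, with signals from 2.96 to 9.12.

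Over the 8 genes with a tested probe, each taken by its brightest probe, 6 differences were below 0 and 2 above, with a median of -0.65, and 0.80 without scaling. With the mean over a gene's probes in place of the brightest it was -0.27, a value that takes in the downstream Mpo probe set aside above. Over all 16011 genes, 9901 differences were below 0 and 6110 above, with a median of -0.36. Without scaling the median over all probes was 1.12. The summed scaled signal of the 8 genes, on a linear scale, was 12.7, 15.2 and 7.20 in 2T-WT against 7.34, 8.12 and 5.17 in 2T-p190-B-/-, with Lcn2 the brightest. The groups overlapped through 2T-WT replicate 3, the dimmest array. In such samples, fewer cells of a type and less RNA per cell cannot be told apart.

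Among 18 other neutrophil granule genes, 12 were measured, 6 higher and 6 lower, with a median difference of 0.09, and it was -0.39 with normexp. It was 1.54 without scaling, -0.90 among probes above background on all arrays and -0.38 to 0.59 with 1 array left out. The list holds Ltb4r1, a leukotriene receptor and no granule protein, and without it 5 genes were higher and 6 lower, with a median of -0.16. By limma, 0 had an adjusted p under 0.05 and in 0 did the groups not overlap, against 16.1% of all probes. Mmp8, the collagenase of specific granules, had a signal of 15.1, 38.0 and 16.2 in 2T-WT and 89.0, 78.9 and 4708 in 2T-p190-B-/-. Chil3, a chitinase-like protein, had 18.5, 36.6 and 7.65 in 2T-WT and 388, 57.1 and 21.4 in 2T-p190-B-/-. Each had a single high array after scaling, replicate 3 for Mmp8 and replicate 1 for Chil3, and the groups overlapped for both. Hp, haptoglobin and the brightest of the list, had a signal of 274, 669 and 729 in 2T-WT and 857, 1200 and 316 in 2T-p190-B-/-. Its scaled difference was -1.02, and 2T-WT replicate 3 was its highest array at 3.76, with the other 2T-WT arrays at 1.14 and 1.56. Prss57, a serine protease, differed by -1.39 and was highest on 2T-WT replicate 2 at 0.90. Lgals3, galectin 3, differed by -1.26 and was lowest on 2T-p190-B-/- replicate 1 at -3.43. The other lower genes were Fcnb (-0.78), Lyz1 (-0.58) and Bpi (-0.16). The higher genes were Mmp25 (2.73), Mmp8 (2.48), Pglyrp1 (2.47), Lyz2 (1.42), Chil3 (0.72) and Ltb4r1 (0.34). Without Ltb4r1 the scaled signal summed to 5.18, 8.77 and 19.8 in 2T-WT and 25.6, 8.56 and 22.8 in 2T-p190-B-/-. Mmp9, the gelatinase, Olfm4 and Retnlg were not well above background on any array.

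Looked at for this after the values were seen, a gap of at least 2 on the log2 scale between the highest and the next array was found for 3 of the 12 other granule genes (25%), Mmp8, Chil3 and Pglyrp1, and for 0 of the 8 members tested. S100a8, a member that was not tested, had a gap of 4.24. Over all 15806 genes with a value on every array, a gap of at least 2 was found for 2535, 16%. Among the other lists the share ran from 0% for regulators of granulopoiesis to 50% for megakaryocyte and platelet markers, 2 of 4 genes.

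Of 10 genes listed for granule protease processing and inhibitors, among them Lcp1, an actin bundler that is neither, 7 were measured, 3 higher and 4 lower, with a median difference of -0.65, and 0.80 without scaling. The median was -0.07 with quantile normalization, -1.53 among probes above background on all arrays, -1.90 within the slide that holds both genotypes and -1.47 to -0.18 with 1 array left out. With the mean over a gene's probes it was 0.44, which takes in a second Lcp1 probe above background on 0 of the 2T-WT arrays. Without Lcp1 the median was -0.10. In 3 of the 7 the groups lay apart, against 16.1% of all probes, with limma adjusted p = 0.637 for each. Lcp1 differed by -1.82 (SE 0.81) at its brightest probe, while its second probe lay higher in 2T-p190-B-/-, the only group where it was above background. Slpi, an elastase inhibitor, was lower in 2T-p190-B-/-, above background on 2 arrays of 2T-WT and 1 of 2T-p190-B-/-, and Cst7, a cystatin, was higher, above it on 1 and 3. Ctsc, the peptidase that activates the azurophil serine proteases, was well above background on 1 array, 2T-p190-B-/- replicate 2, and Srgn and Stfa1 on 0. The summed signal of the 7 genes was 25.0, 10.3 and 33.7 in 2T-WT and 27.0, 10.7 and 12.6 in 2T-p190-B-/-, with Cst3 the brightest.

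Of 14 regulators of granulopoiesis, 9 were measured, 2 higher and 7 lower, with a median of -0.61, and 0.84 without scaling and 0.02 under quantile normalization. Cebpa differed by -1.15 and Cebpe by -0.61, both with overlap. Cebpa was highest on 2T-WT replicate 2, at 0.84. Cebpe was high on replicate 3 of each genotype, at -0.96 in 2T-WT and -0.90 in 2T-p190-B-/-. Gfi1, the repressor needed for neutrophil differentiation, was above background on 2 arrays, 1 of each genotype. Csf3r, the G-CSF receptor, differed by -1.20 with overlap. It was highest on 2T-WT replicate 3 at 11.02, with the other 2T-WT arrays at 9.83 and 9.22. Csf1r, the M-CSF receptor, differed by -1.18 (SE 0.71, limma adjusted p = 0.637) without overlap at its brightest probe. Its other tested probes differed by -1.37 without and by -0.22 with overlap. Before scaling, the signal of Csf1r at its brightest probe was 8434, 12390 and 8165 in 2T-WT and 14650, 14020 and 7291 in 2T-p190-B-/-. That of Csf3r was 113500, 135400 and 112300 in 2T-WT and 139500, 120000 and 171900 in 2T-p190-B-/-, and both overlapped. Summed over the list, the scaled signal was 1058, 730 and 2241 in 2T-WT and 439, 440 and 726 in 2T-p190-B-/-, with Csf3r the brightest. Cebpd and Myb were above background on 0 arrays.

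Of 6 NADPH oxidase subunits 6 were measured, with a median of -0.74, and 0.71 without scaling. Cybb, the catalytic subunit of the phagocyte enzyme, differed by -1.43 (SE 0.78) and Rac2 by -1.01 (SE 0.73), both without overlap (limma adjusted p = 0.637 and 0.66). Cybb was above background on 2 arrays of 2T-WT and 1 of 2T-p190-B-/-. The unscaled signal of Cybb was 22.9, 17.0 and 17.1 in 2T-WT and 28.0, 14.2 and 17.7 in 2T-p190-B-/-, overlapping. As at the upstream Mpo probe, the signals of Cybb lay close together on all arrays before scaling. Those of Rac2 were 162, 256 and 189 in 2T-WT and 297, 250 and 264 in 2T-p190-B-/-, also overlapping. Over the subunits the scaled signal summed to 8.999, 7.64 and 5.97 in 2T-WT and to 3.32 and 8.52 on replicates 1 and 3 of 2T-p190-B-/-, with Ncf1 the brightest. On replicate 2 Ncf1 had no value, and the sum of 1.85 there holds the other subunits alone.

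**Figure D4:**
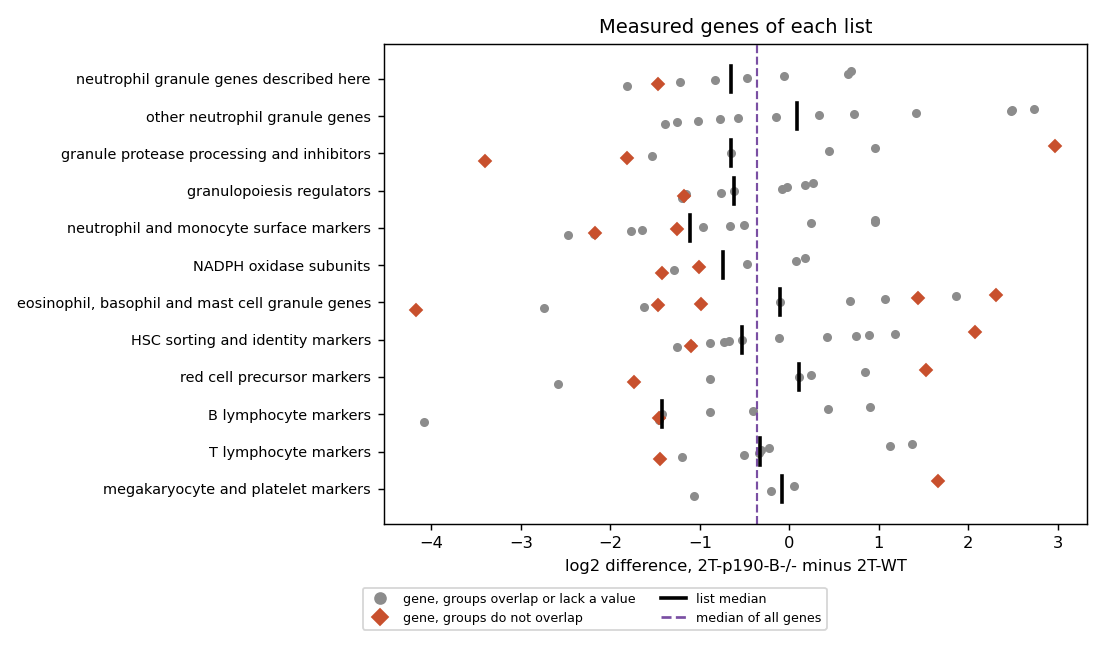
Log2 differences, 2T-p190-B-/- minus 2T-WT, of the measured genes of each list, each gene by its brightest probe, with the list median as a black bar and the median of all genes, -0.36, dashed. Orange diamonds are genes whose groups do not overlap, which lie on both sides of the dashed line.

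The label of the cells was set against markers. Of 19 HSC sorting and identity markers, 13 were measured, 5 higher and 8 lower, with a median of -0.53, and 0.92 without scaling, and Fgd5 was the brightest. Kit was above background on 5 of 6 arrays, all but 2T-WT replicate 3, and Ly6a, which encodes Sca-1, on all 6. Slamf1, which encodes the CD150 used in the sort, and Procr were not well above background on any array, while Cd48, whose protein the sort excluded, was above it on all 6. Mecom, an HSC transcription factor, had a difference of 2.07 (SE 0.93, limma adjusted p = 0.637) and Flt3 of -1.11 (SE 0.67, limma adjusted p = 0.637), both without overlap. Mecom was at 1.24 without 2T-p190-B-/- replicate 3, and the second Flt3 probe differed by 0.48 with overlap. The summed scaled signal of the 13 genes was 71.1, 51.2 and 166 in 2T-WT and 45.0, 33.5 and 75.3 in 2T-p190-B-/-.

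Neutrophil and monocyte surface markers had 14 of 16 genes on the array, Ly6g and Ly6c2 without a probe under these names. Of the 12 measured, 9 were lower and 3 higher, with a median of -1.11, and 0.34 without scaling. Cd14 differed by -2.17 (SE 0.69) and Trem1 by -1.26 (SE 0.71), both without overlap and with limma adjusted p = 0.637. Before scaling, the signal of Cd14 was 404, 465 and 220 in 2T-WT and 355, 223 and 116 in 2T-p190-B-/-. That of Trem1 was 91680, 80830 and 58150 in 2T-WT and 91320, 91300 and 76520 in 2T-p190-B-/-, and both overlapped. Itgam was the brightest, with a signal from 189200 to 307500, and differed by -1.64 with overlap. After scaling, its highest array was 2T-WT replicate 3 at 12.48, with the other 2T-WT arrays at 10.68 and 9.74. The summed scaled signal was 2386, 1216 and 6796 in 2T-WT and 746, 882 and 1194 in 2T-p190-B-/-, and 2T-WT replicate 3, with the smallest divisor, had the highest sum. Itgb2l was above background on 0 arrays, and the sum on 2T-p190-B-/- replicate 3 holds 11 of the 12 genes. The lineage antibodies of the sort include CD11b, the protein of Itgam, and Gr1. The part of these cells in the granule gene values was not tested.

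The other marker lists gave the following. Of 14 eosinophil, basophil and mast cell granule genes, 11 were measured, 5 higher and 6 lower, with a median of -0.11, and 1.34 without scaling. It was 0.40 with quantile normalization, 0.56 within the slide that holds both genotypes and -1.46 among probes above background on all arrays. In 5 of the 11 the groups lay apart, against 16.1% of all probes: Ear6 (-4.18, SE 1.86), Tpsb2 (-1.46), Prg3 (-0.98), Epx and Tpsab1. Ear6 was high on 2T-WT replicate 1 alone, without which its difference was -1.71. The second Tpsb2 probe, above background on every array, differed by 1.94 and lay apart in the other direction. Epx, above background on 1 array of 2T-WT and 2 of 2T-p190-B-/-, and Tpsab1, above it on 1 and 3, were higher in 2T-p190-B-/-. The summed scaled signal was 324, 104 and 451 in 2T-WT and 68.2, 64.8 and 92.0 in 2T-p190-B-/-, and Tpsb2 was the brightest. Before scaling, the signal of Tpsb2 at its brightest probe was 19410, 19710 and 23820 in 2T-WT and 22600, 18530 and 21110 in 2T-p190-B-/-, overlapping. Cpa3, Gzmb and Ms4a2 were above background on 0 arrays. Red cell precursor markers had 7 of 12 measured, with a median of 0.11, and 1.56 without scaling and -0.63 with normexp, and Slc4a1 (1.53) and Ahsp (-1.73) did not overlap. Their summed signal was 6.78, 9.55 and 3.66 in 2T-WT and 5.64, 4.74 and 5.80 in 2T-p190-B-/-, Slc4a1 was the brightest, and Epb42 was above background on 0 arrays.

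B lymphocyte markers had 9 of 10 measured, with a median of -1.43, and 0.02 without scaling, and Vpreb1 (-1.45) did not overlap. Without 2T-WT replicate 3 the median was -0.43, and among probes above background on all arrays -0.41. Their summed signal was 6.75, 6.09 and 727 in 2T-WT and 7.45, 4.89 and 7.20 in 2T-p190-B-/-, the value of 727 on 2T-WT replicate 3 coming with Cd79a, the brightest. T lymphocyte markers had 8 of 10 measured, with a median of -0.33, and 1.12 without scaling. Cd5 (-1.45) did not overlap, with a summed signal of 93.4, 49.5 and 144 in 2T-WT and 38.5, 36.0 and 57.6 in 2T-p190-B-/- and Cd4 the brightest. Megakaryocyte and platelet markers had 4 of 9 measured, with a median of -0.08, and 1.37 without scaling. Treml1 (1.66, and 0.82 without 2T-p190-B-/- replicate 3) did not overlap, with a summed signal of 55.3, 58.5 and 89.6 in 2T-WT and 31.8, 27.1 and 97.9 in 2T-p190-B-/- and Itgb3 the brightest.

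Of the genes named from the lists, those without overlap were followed with 1 array left out. Leaving out 2T-WT replicate 3 brought Csf1r to -0.74, Trem1 to -0.90, Cybb to -0.95, Rac2 to -0.50 and Tpsb2 to -0.82. Leaving out 2T-WT replicate 1 brought Cd5 to -0.87 and Flt3 to -0.91, and leaving out 2T-WT replicate 2 brought Prg3 to -0.67. Apart from Treml1, given above, the others stayed above 1 in size. For list genes with overlap such values are not given. Before scaling, the groups overlapped at the brightest probe of each list gene that lay lower without overlap. They did not overlap for those that lay higher. With 1 array left out, the medians ran from -0.53 to 0.30 for eosinophil, basophil and mast cell genes, from -0.88 to 0.17 for red cell precursors and from -0.52 to 0.63 for megakaryocytes. They kept their direction for regulators of granulopoiesis (-0.70 to -0.10), NADPH oxidase (-1.16 to -0.27), surface markers (-1.40 to -0.84), HSC (-0.86 to -0.25) and T lymphocytes (-0.65 to -0.21). Under other settings, the regulators' median turned to 0.17 within the slide that holds both genotypes. That of T lymphocytes turned to 0.09 with normexp. The lineage antibodies of the sort also include B220, Ter119, CD3 and CD5. The part of other blood cells in the granule gene values was not tested.

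The genes most like a member were sought over the 6 arrays among 13751 probes above background on all of them, as a description. For Elane, the first azurophil gene with such a probe, these were Gjd3, Csnk2a1 and Tmem134, with Pearson's r of 0.988, 0.987 and 0.985, and 316 probes had an r above 0.9. For Lcn2 they were Taar7b, Mgst3 and Gbp9, with r of 0.993, 0.99 and 0.989, and 130 probes had an r above 0.9. The 6 points share their arrays' divisors, and S100a8 and S100a9 had no such probe.

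The arrays lie on 3 slides, with 2T-WT replicate 1 alone on slide 1, 2T-p190-B-/- replicate 3 alone on slide 3 and the other 4 arrays on slide 2. With 3 arrays per genotype, the smallest two-sided p of an exact permutation test is 0.1. Within slide 2, the difference of the upstream Mpo probe was -1.72, without overlap. The groups also lay apart there for 11487 probes, with 25129 fitted, as fewer arrays make overlap rarer.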

How the data were processed

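Processed signals, a background-corrected intensity, were read from the deposited Agilent Feature Extraction 10.5.1.1 files of the 6 arrays, per the file headers on a linear scale. The authors' deposited value table holds the same intensity divided by 1 number per array. Outlier and control spots were left out, signals were divided by the array's 75th percentile over the 43020 non-control spots, taken as log2 and averaged over the spots of each of 39429 probes. Of these, 26412 were named through RefSeq by accession, 3854 by gene name and 735 by synonym, and 8428 kept the name in the file. Probes well above background on at least 3 arrays were fitted (25160) with limma 3.58.1 in R 4.3.3, with Benjamini-Hochberg adjustment, checked on simulated data. The members and lists were chosen with earlier results of these data known. The lists cover other neutrophil granule genes, granule protease processing and inhibitors, regulators of granulopoiesis, neutrophil and monocyte surface markers, NADPH oxidase subunits, eosinophil, basophil and mast cell granule genes, and markers of HSC, red cell precursors, B and T lymphocytes and megakaryocytes. From each list the report names, each by its brightest probe, genes whose groups do not overlap, the brightest gene and a set of named markers, among them Mmp8, Mmp9 and Chil3. Alternatives covered scaling, background correction, filters, left-out arrays, slides and variance models. The alternative of leaving the arrays unscaled was added after seeing the data. The results of 2 marker genes are not reported here.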

Additional observations from a re-analysis of the deposited data

How the results depend on the processing

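In every setting run, 0 probes had a limma adjusted p under 0.05. Mpo upstream, Ltf and Camp downstream did not change sign, but Mpo upstream was -0.02 without scaling and Camp downstream 0.09 with normexp, against 1.37. The median over all probes was -0.33, and -0.11 with quantile normalization, -0.08 with the 75th percentile over probes above background on all arrays, -0.22 with median scaling, -0.47 with normexp, -0.21 with the authors' values and 1.12 without scaling. Of the probes without overlap, 28.1% were higher, against 38.1% with quantile normalization, 42.4% with that percentile, 14.3% with normexp and 97.8% without scaling.

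Without scaling, the differences turned for Elane (0.62), Prtn3 (1.39), Ctsg (0.23) and Lcn2 (0.97), and the members' median was 0.80. Those of Ngp (2.11), Camp upstream (2.14) and Camp downstream (2.82) grew. Prtn3 also turned with quantile normalization (0.0338), the percentile over probes above background (0.20), median scaling (0.0554) and the authors' values (0.0626). With normexp, Camp upstream (-0.35), Ngp (-0.45) and Lcn2 (0.10) turned, and so did the fitted value of Mpo downstream (-0.73), which is no measured size, since the probe was not above background in 2T-WT. Lcn2 was 0.24 within the slide that holds both genotypes and with slide as a fixed block. Leaving out 1 array at a time gave -0.86 to 0.55 for Prtn3, -0.48 to 1.45 for Ngp and -1.26 to 0.0745 for Lcn2.

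Probes without overlap numbered 4006, and 2382 among probes above background on all arrays, 11487 within the slide and 5768 to 8113 with 1 array left out, where fewer arrays make overlap rarer. Member probes without overlap numbered 2, and 4 without scaling (5259 of all probes), 0 above background on all arrays and 2 to 4 with 1 array left out. Of these, the downstream Mpo probe had to differ and is no support. The members with a probe above background on all arrays were Elane, Ctsg and Lcn2, so neither Mpo probe entered that count. Probes past 2-fold and the methods' t-test numbered 1613, and 2985 with normexp, 854 above background on all arrays and 1000 to 2375 with 1 array left out. The causes of these changes were not tested, beyond the fewer probes or arrays. S100a8 and S100a9 were fitted only without a filter on dim probes, with a limma adjusted p of 0.688 each, and have no main value to compare.

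With a replicate block, 0 probes had an adjusted p under 0.05 and 1871 an unadjusted p under 0.05. Deviations of the pairs with the same replicate number correlated at 0.00896, 0.0161 and 0.0863. Whether such a pair shares an isolation is not stated, so the pairing rests on the number alone. Low signal over background limits the dim probes, with 48.4% to 73.1% of probes above background per array.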
